A study of Mus musculus with 6 samples.

Results

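The genes described here encode the enzymes of glycolysis, gluconeogenesis, glycogen storage, fructose breakdown and the polyol pathway, with the kinases that control them. They were chosen by gene name. Of 37074 gene names on the array, 45 belong to the list, and 99 of the 56605 non-control probes carry 1 of these names. Testing required a signal well above background on every array of 1 group or of both, which left 86 probes for 44 of the 45 genes. Hk2, the hexokinase of insulin-sensitive tissues, has 1 probe here, which was well above background on 0 of the 6 arrays.

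Renal cortex RNA of male mice aged 16 weeks was measured, with 3 mice per group and 1 one-colour Agilent array per mouse. By the deposited labels 1 group is db/m and the other db/db, but the study's methods describe both as diabetic db/db mice, which lack a working leptin receptor, after 8 weeks with or without Huangqi decoction (HQD), a herbal formula. The groups are therefore called labelled db/m and labelled db/db, and a difference is the mean of the former minus that of the latter. The dose of HQD and the genotype behind the labelled db/m arrays could not be told from the labels. Mice were fasted overnight before the kidneys were taken. Genes are ordered by role, and a level is the log2 signal of a probe relative to the 75th percentile of its array, so that levels of different probes are not compared with each other.

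Glucose is made and used in different parts of the nephron. Proximal tubule cells make glucose from lactate, glutamine and glycerol and release it to the blood, and they burn little of it themselves. Thick limb and collecting duct cells break glucose down, with more lactate formed towards the medulla. Aldose reductase turns glucose into sorbitol, which medullary cells hold as an osmolyte and which sorbitol dehydrogenase oxidises to fructose.

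The arrays lay on 3 slides scanned on 1 day, and slide 1 alone held both groups (db/m replicate 1 and db/db replicate 3). A difference within slide 1 therefore compares 1 mouse with 1 mouse. With slide as a block the difference is this same value, as the arrays of the other slides add only to its error. Those slides held 1 group each, so that slide and group cannot be told apart there. Between 51.6% and 59.0% of probes were well above background on each array. All 16 proximal tubule markers and all 7 podocyte markers that were looked for were tested. Of the arrays, labelled db/m replicate 2 stood nearer to the labelled db/db arrays in several markers given below. Fewer cells of a type and less RNA per cell cannot be told apart in such samples.

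Most of the pathway genes were a little lower in labelled db/m, and no probe passed the adjusted threshold. By the brightest tested probe of each gene, 34 of 44 genes had a lower mean in labelled db/m, beside 52.6% of all genes, and 10 a higher one, with differences from -0.96 for G6pc to 1.55 for Akr1b3. The median difference over the 44 genes was -0.15, beside -0.020 over all 20360 genes tested. At an unadjusted p under 0.05, 14 of the 86 probes were lower in labelled db/m, where 10.8% of all 29889 tested probes were lower by the same rule, and 1 was higher, where 6.90% of all probes were. The 14 lower probes belong to 13 genes. Over the 19 alternative analyses, the probe of G6pc lost that p in 0, the second probe of Sord in 1, those of Fbp2 and of Gpi1 at its dimmest in 2, those of Slc37a4 and Eno1 in 5, those of Pcx, Pdk1 and Ugp2 in 7, that of Ldhb in 8, and those of Pfkfb1, Tpi1, Gapdh and Gpi1 at its other probe in 9. Groups did not overlap for 21 lower probes and 1 higher probe, beside 16.4% and 7.75% of all probes. None was past the fold screen (an unadjusted p under 0.05 and a fold of at least 2 in either direction), which 0.960% of all probes passed. At a Benjamini-Hochberg adjusted p under 0.05 in limma, 0 probes of the pathway and 0.00% of all probes were called.

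The direction of the whole group varied with the signal and with the scaling of the arrays. Of the 44 genes, 28 lie among the brightest 25% of all genes, where 78.3% of all genes were lower in labelled db/m with a median difference of -0.15, and 25 of these 28 were lower with a median of -0.17. Of the 10 in the next 25%, 4 were lower, beside 61.3% of all genes there. In the 25% below that, 2 of 2 were lower, beside 42.2% of all genes. In the dimmest 25%, 3 of 4 were lower, beside 28.7%. Outside the brightest 25% the few pathway genes thus did not follow the share of all genes. With quantile normalization 25 of 44 genes were lower (median -0.027), with the authors' deposited log2 matrix 26 (median -0.032), and with median centring, which moved all probes by -0.19, 39 (median -0.34). Among the genes lower as reported, Hk1, Gpi1, Aldoa, Tpi1, Pgk1, Pgam1, Pkm and Pdha1 turned higher with both quantile normalization and the matrix, and Ldha with quantile normalization. Among those higher as reported, Pfkl, Pfkfb2, Eno2, Pdk3 and Pdhb turned lower with median centring.

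**Figure D1:**
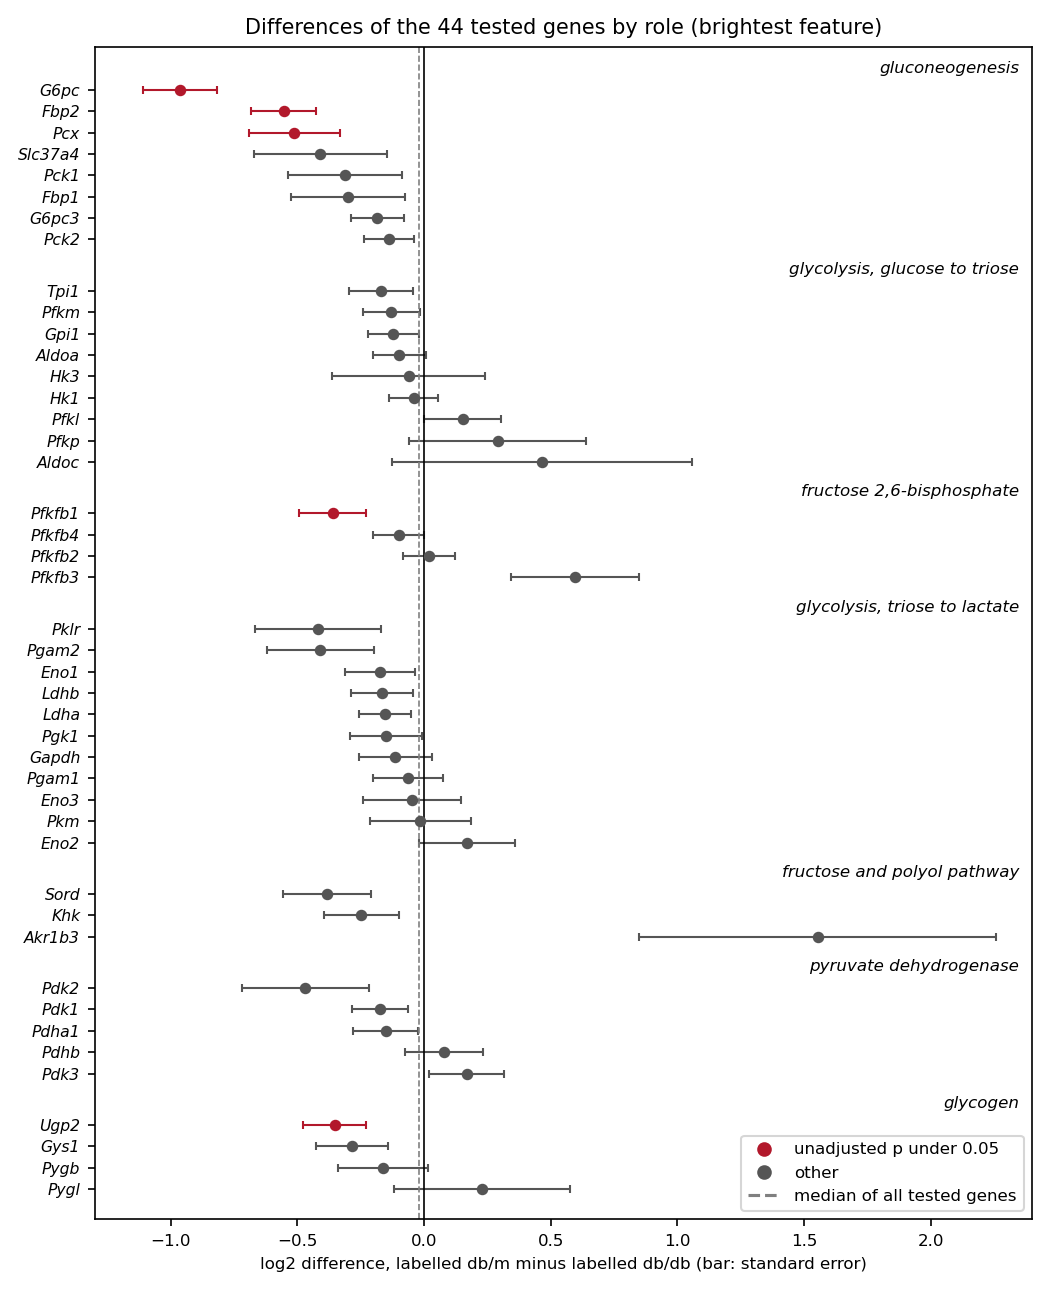
Log2 differences (labelled db/m minus db/db, horizontal axis) of the 44 tested genes, each by its brightest probe, grouped by role, with standard errors as bars and genes at an unadjusted p under 0.05 in red. On this scale all 8 gluconeogenic genes lie below 0, from -0.96 for G6pc to -0.14 for Pck2, and Akr1b3 lies farthest above 0 at 1.55 with the widest bar.

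**Figure D2:**
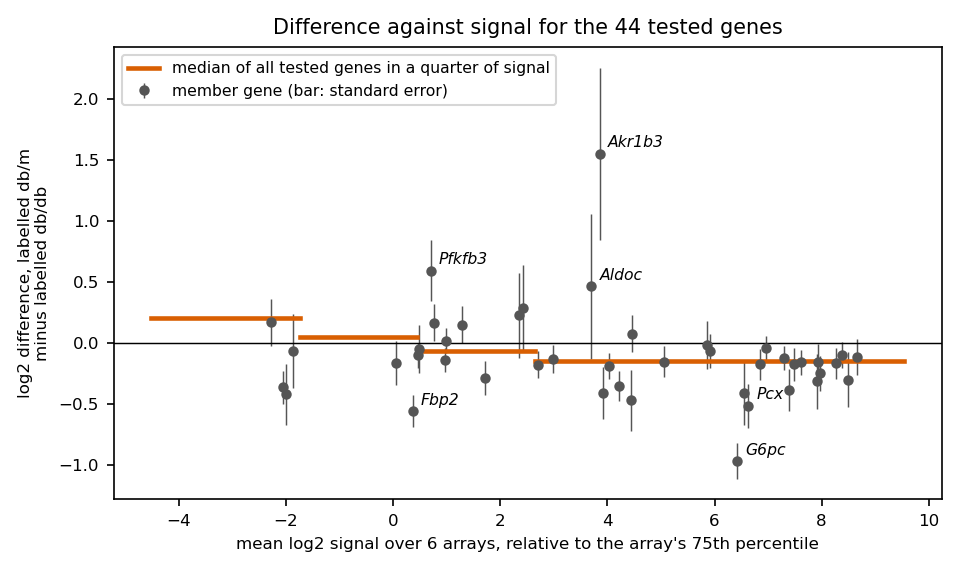
Log2 difference (vertical axis) against mean log2 signal over the 6 arrays (horizontal axis) for the 44 tested genes, with standard errors as bars and, as orange lines, the median difference of all tested genes in each 25% of the genes by signal. The medians of all genes go from 0.21 in the dimmest 25% to -0.15 in the brightest, and most of the bright pathway genes lie near that line, whereas G6pc lies below it and Akr1b3 above it.

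Gluconeogenesis was the role in which every gene had a lower mean in labelled db/m. All 8 genes were lower by their brightest probe, beside 52.6% of all genes, with a median difference of -0.36. Of the 8, 3 (G6pc, Fbp2 and Pcx) had an unadjusted p under 0.05, beside 9.18% of all genes by the same rule. In the brightest 25% of all genes, where most of the 8 lie, 78.3% were lower and 14.2% lower at that p. All 8 were also lower with quantile normalization, median centring and the deposited matrix, whereas Pck2 and G6pc3 turned higher on a scale set against proximal tubule markers, described below. The median was -0.16 without db/m replicate 1, -0.20 with quantile normalization, -0.24 with the deposited matrix and -0.13 against those markers, and it was -0.54 without db/m replicate 2, -0.55 with median centring or without both db/m replicate 2 and db/db replicate 3, and -0.74 within slide 1. The smallest differences were those of Pck2, the mitochondrial form of phosphoenolpyruvate carboxykinase (-0.14), and G6pc3, the widely expressed glucose-6-phosphatase (-0.19).

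G6pc encodes the catalytic subunit of glucose-6-phosphatase, which frees glucose in the last step of gluconeogenesis in liver and proximal tubule. Its level was 5.83, 6.21 and 5.80 in labelled db/m and 7.03, 6.86 and 6.84 in labelled db/db. Every labelled db/m array lay below every labelled db/db array, by at least the gap between 6.21 and 6.84. The difference was -0.96 (SE 0.15, unadjusted p = 0.000348, Benjamini-Hochberg adjusted p = 0.24), a signal 1.95 times as high in labelled db/db. It was -1.02 within slide 1, and it kept an unadjusted p under 0.05 in all 19 alternative analyses. Without labelled db/m replicate 2, the labelled db/m array nearest to the other group, the Benjamini-Hochberg adjusted p was 0.0373. Leaving out the nearest array had to widen the difference, so this value is no separate evidence. In that fit 222 of all 31429 probes passed the adjusted threshold, beside 0 with all arrays.

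Slc37a4, the transporter that carries glucose 6-phosphate into the endoplasmic reticulum for G6pc, was read by 2 probes. The brighter one gave 5.81, 6.82 and 6.39 in labelled db/m and 6.55, 6.96 and 6.74 in labelled db/db, with replicate 1 of labelled db/m lowest and replicate 2 inside the labelled db/db range. Its difference was -0.41 (SE 0.26, unadjusted p = 0.163). A dim probe for another transcript of the gene gave -1.94, -2.47 and -2.29 against -1.45, -1.76 and -1.84, with no overlap and a difference of -0.55 (SE 0.18, unadjusted p = 0.0181), but only -0.10 within slide 1.

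Fructose 1,6-bisphosphatase is encoded by Fbp1 in liver and kidney and by Fbp2 in muscle. Fbp1 had levels of 7.92, 8.77 and 8.30 in labelled db/m and 8.45, 8.81 and 8.64 in labelled db/db, which overlapped, since replicate 2 of labelled db/m was as high as the labelled db/db arrays, and its difference was -0.30 (SE 0.23, unadjusted p = 0.225). Fbp2 had levels of 0.23, 0.10 and -0.066 against 0.79, 0.53 and 0.61. All 3 labelled db/m arrays were lower for Fbp2, with a difference of -0.55 (SE 0.13, unadjusted p = 0.00389, Benjamini-Hochberg adjusted p = 0.24). Its unadjusted p in limma was 0.152 with slide as a block, where the difference was -0.38.

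Pck1, the cytosolic phosphoenolpyruvate carboxykinase that sets the pace of gluconeogenesis, did not separate the groups. It read 7.27, 8.18 and 7.82 in labelled db/m and 8.04, 8.11 and 8.05 in labelled db/db. The labelled db/db arrays lay close together, while those labelled db/m spread from the lowest to the highest level of all 6. The difference was -0.31 (SE 0.22, unadjusted p = 0.211).

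Pcx, pyruvate carboxylase, which makes the oxaloacetate that Pck1 uses, gave 6.03, 6.70 and 6.39 in labelled db/m and 6.89, 6.94 and 6.82 in labelled db/db. The groups did not overlap, replicate 2 of labelled db/m came closest to the other group, and the difference was -0.51 (SE 0.18, unadjusted p = 0.0257, Benjamini-Hochberg adjusted p = 0.248). With quantile normalization it was -0.30 at an unadjusted p in limma of 0.0605.

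**Figure D3:**
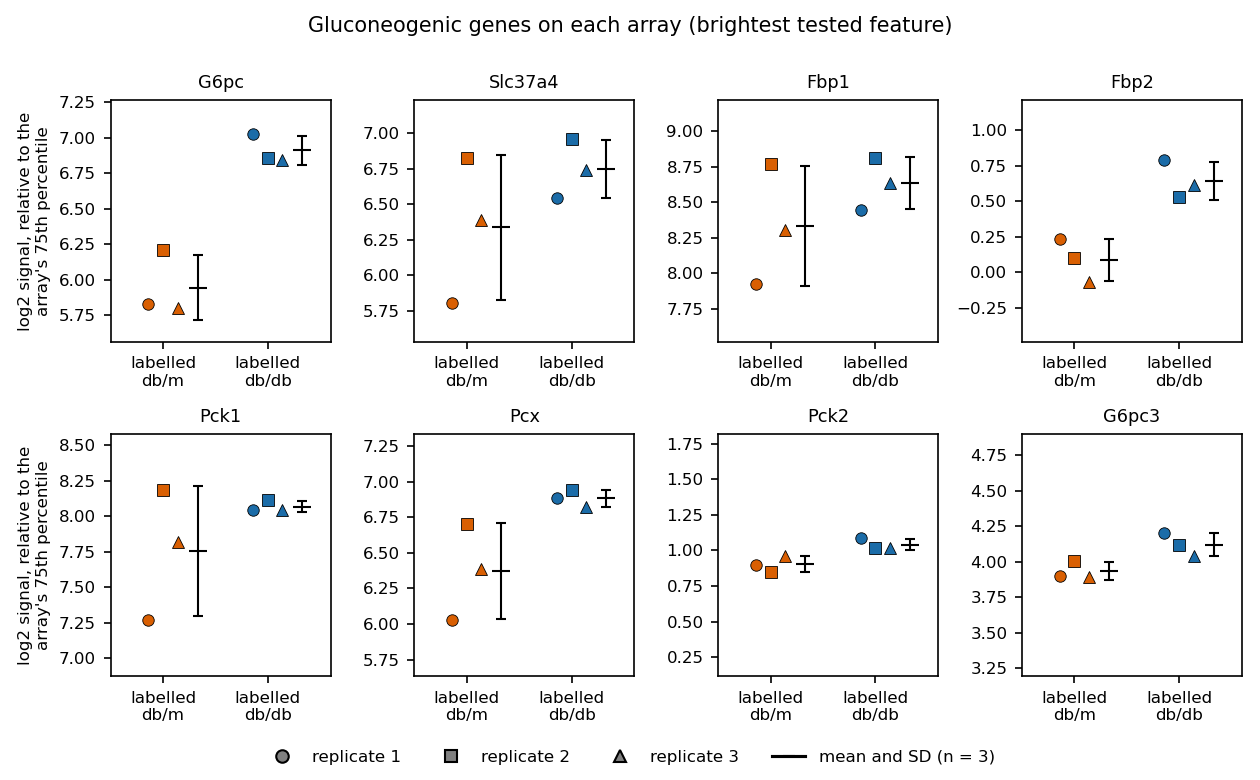
Log2 signal relative to the 75th percentile of each array (vertical axis, equal spans) for the 8 gluconeogenic genes, with 1 point per array, a symbol for each replicate number and the mean with SD (n = 3) beside each group. For G6pc, Fbp2, Pcx, Pck2 and G6pc3 all labelled db/m points lie below all labelled db/db points, and for Slc37a4, Fbp1 and Pck1 replicate 2 of labelled db/m lies with the labelled db/db arrays.

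A few of these genes are shown with the sequences behind their values, because G6pc carried the clearest difference, Fbp2 the next within gluconeogenesis, and Pck1, controlled by the same hormones, did not separate. The probes are 60 bases long, of which the 30 at the 5′ end are printed, and their positions are those of the scanner files on mm9. The G6pc probe maps to chr11:101238947-101239006, plus strand, the Pck1 probe to chr2:172984307-172984366, plus strand, and the Fbp2 probe, which crosses an intron, to chr13:62950852-62955367, minus strand.
G6pc probe: cagaaatatgactcctttccctagcccaag
Pck1 probe: ctaggggcaaataagattgggaggggaaat
Fbp2 probe: ctccatcggaactatatttgctatttacag

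The promoters of G6pc and Pck1 are printed because both are textbook targets of cAMP and insulin. RefSeq's table for GRCm38.p6 had promoters of 44 of the 45 genes, 68 in all, and the 250 bases before each start were searched on both strands for 4 motifs: the cAMP response element core TTACGT, the insulin response element core TGTTTTG, the GC box GGGCGG and the TATA box TATAAA. Matches are in capitals, and in G6pc the run of 8 capitals holds TTACGT on both strands, overlapping. The G6pc window is chr11:101367466-101367715, plus strand, and that of Pck1 is chr2:173152823-173153072, plus strand.
G6pc promoter: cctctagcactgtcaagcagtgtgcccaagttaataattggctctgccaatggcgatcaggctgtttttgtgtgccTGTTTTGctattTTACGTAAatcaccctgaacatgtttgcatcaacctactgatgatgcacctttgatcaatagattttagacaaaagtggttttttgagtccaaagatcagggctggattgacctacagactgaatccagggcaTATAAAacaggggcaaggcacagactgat
Pck1 promoter: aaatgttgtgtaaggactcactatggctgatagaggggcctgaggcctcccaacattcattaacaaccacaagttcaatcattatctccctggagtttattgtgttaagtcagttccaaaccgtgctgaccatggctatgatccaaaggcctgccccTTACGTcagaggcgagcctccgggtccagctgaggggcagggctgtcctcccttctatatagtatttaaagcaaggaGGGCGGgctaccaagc
TTACGT was in 5 of the 68 promoters (7.35%), those of G6pc, Pck1, Slc37a4, Pgam1 and Pdhb, and in 2.40% of all 32851 promoters. TGTTTTG was in 3 of the 68 (G6pc, Fbp2 and Pck2; 4.41%), beside 5.56% of all. These matches are letters in a window, and binding was not measured.

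Proximal tubule markers had mostly lower means in labelled db/m, as the gluconeogenic genes did. Of 16 markers tested, 14 had a lower mean in labelled db/m (12 with quantile normalization or the deposited matrix, 15 with median centring), 2 of them at an unadjusted p under 0.05, with a median difference of -0.26. Of all genes, 52.6% were lower and 9.18% lower at that p. In the brightest 25%, where most of these markers lie, 78.3% and 14.2% were. The summed linear signal of the markers ranged from 2041 to 2872 in labelled db/m and from 2614 to 2883 in labelled db/db. Their mean log2 level was 5.96, 6.45 and 6.06 in labelled db/m and 6.34, 6.43 and 6.40 in labelled db/db. Replicate 2 of labelled db/m was the highest of all 6.

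With each array set against that mean, a scaling added after the data had been seen, all probes moved by 0.23 and 14 of the 44 genes were lower in labelled db/m. Of the gluconeogenic genes, 6 of 8 were lower. G6pc lay -0.14, -0.24 and -0.26 from the marker mean in labelled db/m and 0.69, 0.42 and 0.45 in labelled db/db. The groups stayed apart, with a difference of -0.73 (unadjusted p = 0.00174). For Fbp2 (-0.32, limma unadjusted p = 0.158), Pcx (-0.28, limma unadjusted p = 0.114) and Pck1 (-0.077, limma unadjusted p = 0.676) the differences were smaller. Only 2 pathway probes, those of G6pc and of Sord below, were lower at an unadjusted p under 0.05 on this scale.

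**Figure D4:**
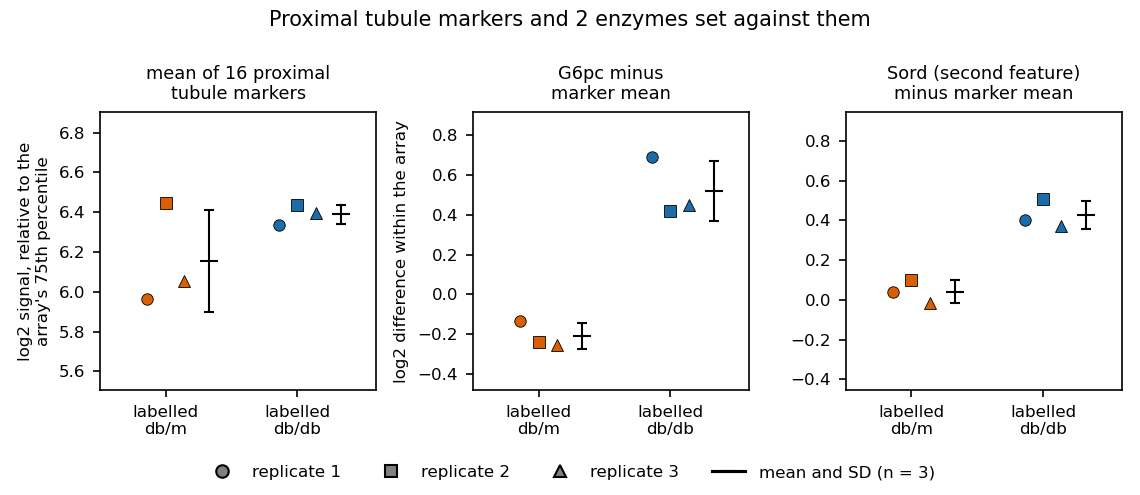
Mean log2 level of the 16 proximal tubule markers on each array (left), and the level of G6pc (middle) and of the second Sord probe (right) minus that mean on the same array (log2 units, vertical axes). Points are arrays and bars the mean with SD (n = 3). Replicate 2 of labelled db/m has the highest marker mean, and for both enzymes the groups are separate after subtraction.

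The early steps of glycolysis, from glucose to triose phosphates, showed small differences in both directions. By the brightest probe, 6 of the 9 tested genes were lower and 3 higher, and none had an unadjusted p under 0.05. This balance turned with the scaling, since 2 of 9 were lower with quantile normalization or the deposited matrix. Hk1, the hexokinase of most tissues, read 6.95, 6.97 and 6.92 in labelled db/m and 7.04, 6.94 and 6.99 in labelled db/db by its brightest probe. These levels overlapped almost fully, and the difference was -0.040 (SE 0.10, unadjusted p = 0.689). A probe for another Hk1 transcript read 5.65, 4.28 and 5.07 against 5.10, 4.65 and 4.82, with a difference of 0.15 (SE 0.34, unadjusted p = 0.676). It varied far more among the labelled db/m arrays than the first, and a further, dim probe differed by -0.051. Hk3, the hexokinase of myeloid cells, differed by -0.061.

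Gpi1, glucose-6-phosphate isomerase, was read by 4 probes that all had a lower mean in labelled db/m on this scale. The brightest gave 7.20, 7.27 and 7.22 against 7.33, 7.44 and 7.28, with no overlap and a difference of -0.12 (SE 0.10, unadjusted p = 0.275). A dimmer probe for the same transcript read 4.33, 4.52 and 4.35 against 4.72, 4.73 and 4.55 and differed by -0.27 (SE 0.11, unadjusted p = 0.049). The probe for another transcript read 1.97, 1.91 and 1.82 against 2.32, 2.32 and 2.21 and differed by -0.38 (SE 0.10, unadjusted p = 0.00846). The bright and the dim probes thus share a direction and not a size, and the brightest one changed its sign with quantile normalization, with the matrix and against the tubule markers.

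The 3 subunits of phosphofructokinase, the enzyme that commits glucose to glycolysis, had unlike patterns. Pfkl, the liver form, read 1.60, 1.08 and 1.38 in labelled db/m and 1.25, 1.18 and 1.18 in labelled db/db, a difference of 0.15 (SE 0.15, unadjusted p = 0.347). A dim probe of Pfkl for another transcript was the pathway's only higher probe at an unadjusted p under 0.05, with -0.54, -0.15 and -0.73 against -0.70, -0.98 and -1.13 and a difference of 0.47 (SE 0.19, unadjusted p = 0.0439). Its groups still overlapped, and it lost that p in 12 of the 19 alternatives. Pfkm, the muscle form, read 2.94, 3.03 and 2.81 against 2.97, 3.07 and 3.12, a difference of -0.13 (SE 0.11, unadjusted p = 0.285).

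Pfkp, the platelet form, read 3.28, 1.86 and 2.59 in labelled db/m and 2.49, 1.99 and 2.37 in labelled db/db. Replicate 1 of labelled db/m was the highest of the 6 arrays and replicate 2 the lowest, so the difference of 0.29 (SE 0.35, unadjusted p = 0.433) was smaller than the spread within labelled db/m. It turned to -0.061 without replicate 1. The other tested Pfkp probes had the same order of the labelled db/m arrays and differed by 0.29 and 0.77.

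Aldolase splits fructose 1,6-bisphosphate into triose phosphates. Aldoa, the widely expressed form, differed by -0.10, while Aldoc, the form best known from brain, had the widest spread within a group after Akr1b3. Its brightest probe read 4.99, 2.51 and 4.30 in labelled db/m and 3.70, 3.13 and 3.58 in labelled db/db. As with Pfkp, the labelled db/m arrays held both the highest and the lowest level, and the difference was 0.47 (SE 0.59, unadjusted p = 0.459), or -0.063 without replicate 1. All 3 Aldoc probes had this order. Tpi1, triosephosphate isomerase, was read by 4 probes, all with a lower mean in labelled db/m on this scale, although the brightest turned higher with quantile normalization, with the matrix and against the tubule markers. The brightest read 6.62, 6.95 and 6.73 against 6.90, 7.05 and 6.86, a difference of -0.17 (SE 0.13, unadjusted p = 0.222). Of the others, 1 had an unadjusted p under 0.05, with 4.44, 4.65 and 4.49 against 4.79, 4.99 and 4.74 and a difference of -0.31 (SE 0.12, unadjusted p = 0.0378).

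The Pfkfb enzymes make and remove fructose 2,6-bisphosphate, which drives phosphofructokinase and holds back fructose 1,6-bisphosphatase. Pfkfb1, the liver form, read -2.30, -2.20 and -2.21 in labelled db/m and -1.71, -1.81 and -2.11 in labelled db/db. Each labelled db/m array was lower, although db/db replicate 3 came close to them, and the difference was -0.36 (SE 0.13, unadjusted p = 0.031). With slide as a block it was -0.19, at a limma unadjusted p of 0.344. Pfkfb3, a form with strong kinase activity, went the other way, with 1.10, 0.47 and 1.42 against 0.40, 0.60 and 0.21. Replicate 2 of labelled db/m overlapped with labelled db/db, and the difference of 0.60 (SE 0.25, unadjusted p = 0.051) did not reach the threshold. It did in 8 of the 19 alternatives, quantile normalization and the deposited matrix among them, with differences from 0.38 without db/m replicate 3 to 0.90 with slide as a block. Pfkfb3, Aldoc and Pygl were picked for these values after they had been seen. Pfkfb2 and Pfkfb4 differed by 0.020 and -0.10.

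Lower glycolysis, from triose phosphates to lactate, was lower in labelled db/m for 10 of 11 genes, at a median of -0.15, which was also the median of the brightest 25% of all genes. The count was 6 of 11 with quantile normalization, 7 with the deposited matrix and 11 with median centring, and 0 of the 11 brightest probes had an unadjusted p under 0.05. Differences ranged from -0.42 (Pklr) to 0.17 (Eno2). Among the genes between them were Pgam2, the muscle phosphoglycerate mutase (-0.41), its widely expressed paralog Pgam1 (-0.063), Pgk1, phosphoglycerate kinase (-0.15), and Eno3, the muscle enolase (-0.047).

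Gapdh, glyceraldehyde-3-phosphate dehydrogenase, often used as a reference gene, was read by 7 probes. The brightest gave 8.38, 8.87 and 8.55 in labelled db/m and 8.69, 8.72 and 8.74 in labelled db/db, overlapping, with a difference of -0.11 (SE 0.14, unadjusted p = 0.457). The dimmest gave 3.82, 4.42 and 4.07 against 4.43, 4.72 and 4.58, where the groups did not overlap, with a difference of -0.47 (SE 0.18, unadjusted p = 0.034). All 7 had replicate 1 of labelled db/m as the lowest array and a lower mean in labelled db/m, also with quantile normalization, the matrix and median centring, but 2 of them, the brightest included, were higher when set against the tubule markers. Gapdh has near-identical pseudogenes, with which its probes may share signal.

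Eno1, the widely expressed enolase, read 7.22, 7.60 and 7.35 against 7.43, 7.61 and 7.66 by its brightest probe, a difference of -0.17 (SE 0.14, unadjusted p = 0.244). A second probe, which crosses an intron, read 2.55, 2.79 and 2.60 against 2.92, 3.21 and 3.05, with no overlap and a difference of -0.41 (SE 0.13, unadjusted p = 0.0153). A probe for a further transcript had the opposite sign (0.16), so the probes of Eno1 did not share a direction on this scale.

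Pyruvate kinase makes pyruvate and ATP. Pklr, the liver and red cell form, which is a proximal tubule gene in kidney, read -2.71, -1.93 and -1.98 in labelled db/m and -2.11, -1.63 and -1.63 in labelled db/db. Replicate 1 of labelled db/m was lowest by a wide margin, and the difference was -0.42 (SE 0.25, unadjusted p = 0.139). Pkm, the muscle form used by most other cells, read 6.23, 5.46 and 5.84 against 5.98, 5.76 and 5.85. Here replicate 1 of labelled db/m was the highest and replicate 2 the lowest of all arrays, and the difference of -0.015 (SE 0.20, unadjusted p = 0.942) had no stable sign. Of the other 3 Pkm probes, the differences were 0.0062, -0.23 and 0.31.

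Lactate dehydrogenase interconverts pyruvate and lactate. Ldha, the subunit that favours lactate, read 7.47, 7.60 and 7.57 in labelled db/m and 7.73, 7.75 and 7.62 in labelled db/db, a small difference of -0.16 (SE 0.10, unadjusted p = 0.176) without overlap. Ldhb, the subunit of oxidative tissue, read 8.08, 8.38 and 8.11 against 8.30, 8.44 and 8.34 by its brightest probe, with overlap and a difference of -0.17 (SE 0.12, unadjusted p = 0.223). A dimmer Ldhb probe read 5.78, 5.88 and 5.70 against 6.04, 6.17 and 6.07 and differed by -0.31 (SE 0.11, unadjusted p = 0.0248). Both Ldh genes were thus lower by similar amounts on this scale, and both lay near 0 with quantile normalization (0.0048 and -0.019).

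Fructose and polyol enzymes gave the most unlike values of any role. Sord, sorbitol dehydrogenase, read 6.95, 7.55 and 7.08 in labelled db/m and 7.49, 7.66 and 7.58 in labelled db/db by its brightest probe, where replicate 2 of labelled db/m overlapped, with a difference of -0.38 (SE 0.17, unadjusted p = 0.0637). A second probe, 514 bases away on mm9, read 6.004, 6.54 and 6.04 against 6.73, 6.94 and 6.77. It did not overlap between the groups and differed by -0.62 (SE 0.17, unadjusted p = 0.00897, Benjamini-Hochberg adjusted p = 0.24), a signal 1.54 times as high in labelled db/db. It was -0.77 within slide 1, at a limma unadjusted p of 0.0505 with slide as a block, and -0.39 (limma unadjusted p = 0.0319) when set against the proximal tubule markers. Both probes were lower in labelled db/m under every scaling tried.

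Khk, ketohexokinase, which starts the breakdown of fructose in the proximal tubule, read 7.68, 8.10 and 7.75 in labelled db/m and 8.05, 8.22 and 7.997 in labelled db/db. Replicate 2 of labelled db/m lay inside the labelled db/db range, and the difference was -0.25 (SE 0.15, unadjusted p = 0.137). A dim second probe differed by -0.33, also with overlap.

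Akr1b3, aldose reductase, had the largest difference of the pathway and the largest spread. Its brighter probe read 5.71, 2.84 and 5.35 in labelled db/m and 3.16, 3.18 and 2.91 in labelled db/db. A second probe read 3.06, 0.070 and 2.85 against 0.23, 0.28 and 0.24. Replicates 1 and 3 of labelled db/m were far above the other 4 arrays by both probes, and replicate 2 of labelled db/m was the lowest of all 6. The differences were 1.55 (SE 0.70, unadjusted p = 0.0648) and 1.74 (SE 0.75, unadjusted p = 0.0539), so that neither reached the threshold. Within slide 1 they were 2.81 and 2.82. Without labelled db/m replicate 1 they were 1.01 and 1.21, at limma unadjusted p of 0.189 and 0.158. Without labelled db/m replicate 2 they were 2.45 and 2.71, with adjusted p 0.0155 and 0.0072. Since replicate 2 was the array that went against the difference, leaving it out had to raise these values, and they are no separate evidence. In that fit 222 of all 31429 probes passed the adjusted threshold, beside 0 with all arrays.

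The Akr1b3 and Sord probes are shown because they read consecutive enzymes of the polyol pathway that differed in opposite directions. The first Akr1b3 probe below (chr6:34260573-34260632, minus strand, mm9) is printed whole, and the second (chr6:34253930-34253982, minus strand), 6591 bases away, and the Sord probe (chr2:122090499-122090558, plus strand) by the 30 bases at the 5′ end. The Akr1b3 probes share no position, and they ordered replicate 2 of labelled db/m alike.
Akr1b3 dimmer probe: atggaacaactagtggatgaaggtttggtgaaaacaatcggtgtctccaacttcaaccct
Akr1b3 brighter probe: ttacccccctggaggactttaacacaagta
Sord second probe: ggctctgcccaaagactacctctgtctcag

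The Sord promoter is printed for contrast with G6pc, as the genes are both lower in labelled db/m. It lies at chr2:122234589-122234838, plus strand (RefSeq, GRCm38.p6). Capitals mark the GC box, found on the opposite strand, and of the 4 motifs no other matched in this window.
Sord promoter: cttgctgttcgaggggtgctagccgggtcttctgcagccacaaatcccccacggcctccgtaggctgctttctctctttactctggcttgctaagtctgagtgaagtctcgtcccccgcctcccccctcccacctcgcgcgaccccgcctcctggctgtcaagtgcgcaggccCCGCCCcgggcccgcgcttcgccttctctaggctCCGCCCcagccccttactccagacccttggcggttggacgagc
The GC box was in 32 of the 68 promoters (47.1%) and in 32.7% of all promoters, and TATAAA in 5 of the 68 (7.35%) and in 12.4% of all.

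Some markers of other nephron segments had array patterns like those of Akr1b3 and Aldoc, which were themselves alike in part. Inner medulla and urothelium markers, of which 6 of 9 were tested and Upk1b, Upk2 and Upk3a were not well above background, had a summed signal from 3.55 to 11.0 in labelled db/m and from 2.84 to 4.29 in labelled db/db. Of the 6, 5 were higher in labelled db/m, 3 of them at an unadjusted p under 0.05. The other, Akr1b7, was lower, with overlap and a difference of -0.62 (limma unadjusted p = 0.0427). Aqp4, the basolateral water channel of the collecting duct, read 2.76, 0.78 and 2.28 against 0.34, 0.24 and 0.80. Slc14a2, the urea transporter of the inner medulla, read -1.35, -2.69 and -0.49 against -3.07, -3.39 and -2.84. Like Akr1b3, these were high on replicates 1 and 3 of labelled db/m and close to the labelled db/db arrays on replicate 2. Of the 6 tested markers, 4 had replicates 1 and 3 of labelled db/m above the other arrays. Fxyd4, a collecting duct regulator of the sodium pump, did the same, with 5.68, 3.76 and 5.90 against 4.07, 3.62 and 3.70. Of the 11 collecting duct markers, 4 had this pattern, and 5 were higher and 6 lower in labelled db/m (6 and 5 with quantile normalization or the matrix). At an unadjusted p under 0.05 Fxyd4 was higher and 3 were lower, which were Slc26a4 (-0.53), Hsd11b2 (-0.41) and Atp6v0d2 (-0.30). The summed signal of the list was 78.2 to 131 in labelled db/m and 80.0 to 94.6 in labelled db/db. Having replicates 1 and 3 of labelled db/m above the other arrays was not particular to these lists. It held for 4 of 10 thick limb and distal convoluted tubule markers, 4 of 13 immune cell markers and 3 of 8 endothelial markers. Among proximal tubule markers it held for 1 of 16, and among podocyte markers for 0 of 7. Its share over all genes was not counted. The part of medullary tissue in the Akr1b3 difference was not tested.

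Aldoc and Pfkp had the array order of Slc12a1, the salt transporter of the thick limb, and Pygl its highest and lowest arrays. Slc12a1 read 6.80, 4.83 and 5.99 in labelled db/m and 5.86, 5.22 and 5.52 in labelled db/db. In all 4 genes replicate 1 of labelled db/m was the highest array and replicate 2 the lowest. Of the 10 thick limb and distal convoluted tubule markers, 4 had these arrays highest and lowest, while Slc12a3, Pvalb and Calb1 were among those that did not. So did 2 of 11 collecting duct markers and 1 of 7 blood markers, with Slc4a1 on both lists, and none on the other marker lists. Among the pathway genes Akr1b3, Pkm, Pfkl and Pygb had these arrays highest and lowest too. The share over all genes was not counted. The 10 markers summed to between 357 and 566 in labelled db/m and between 407 and 437 in labelled db/db, with 4 higher and 6 lower in labelled db/m, and 6 higher and 4 lower with quantile normalization or the matrix. Their part in these values was not tested.

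**Figure D5:**
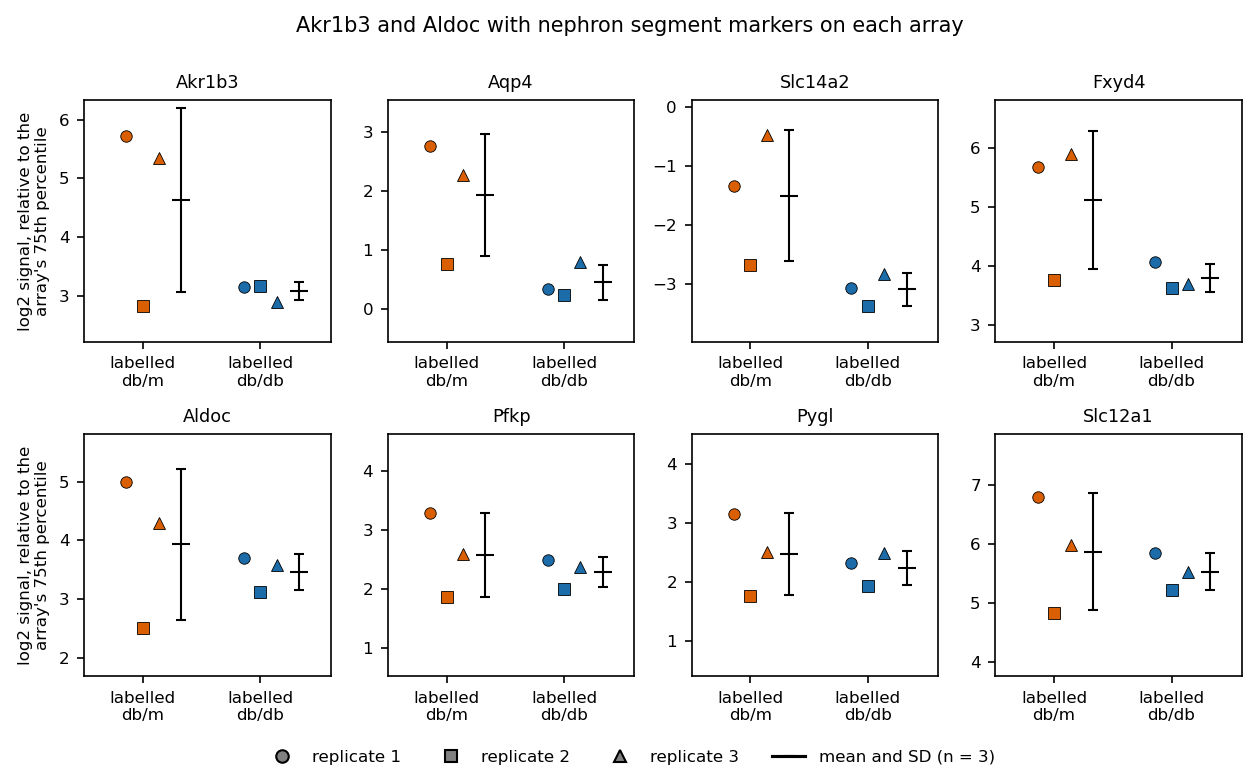
Log2 signal relative to the 75th percentile of each array (vertical axis, equal spans) for Akr1b3 beside the medullary and collecting duct genes Aqp4, Slc14a2 and Fxyd4 (top) and for Aldoc, Pfkp and Pygl beside the thick limb gene Slc12a1 (bottom), with 1 point per array and the mean with SD (n = 3). In the top row replicate 2 of labelled db/m lies near the labelled db/db points, and in the bottom row labelled db/m replicate 1 is highest and replicate 2 lowest. Akr1b3 too has replicate 1 highest and replicate 2 lowest. In the bottom row replicates 1 and 3 of labelled db/m also lie above the labelled db/db points, by little for Pfkp and Pygl.

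Pyruvate dehydrogenase passes pyruvate to the citric acid cycle, and its kinases switch it off. Of its 5 genes here, 3 were lower and 2 higher in labelled db/m, whereas 2 were lower with quantile normalization or the matrix and 5 with median centring. Pdk1, a kinase induced by low oxygen, was read by 5 probes, the brightest with 2.71, 2.55 and 2.56 against 2.69, 2.87 and 2.79 and a difference of -0.18 (SE 0.11, unadjusted p = 0.157). A second probe close to it read 1.17, 0.91 and 0.88 against 1.34, 1.39 and 1.27, without overlap, and differed by -0.34 (SE 0.12, unadjusted p = 0.0245). With slide as a block this was -0.10, at a limma unadjusted p of 0.602. The other 3 probes, all dim, differed by 0.17, 0.27 and -0.42, and thus gave no shared direction. Pdk2 (-0.47), Pdk3 (0.17), and the dehydrogenase subunits Pdha1 (-0.15) and Pdhb (0.078) had no probe at an unadjusted p under 0.05.

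Of 4 glycogen genes, 3 had a lower mean in labelled db/m, also with quantile normalization, the matrix and median centring, and 2 when set against the tubule markers. Ugp2, which makes UDP-glucose for glycogen and glucuronides, read 3.92, 4.23 and 3.95 in labelled db/m and 4.32, 4.46 and 4.37 in labelled db/db, with no overlap and a difference of -0.35 (SE 0.12, unadjusted p = 0.0261). Pygl, the liver glycogen phosphorylase, read 3.15, 1.76 and 2.50 against 2.32, 1.93 and 2.49, a difference of 0.23 (SE 0.35, unadjusted p = 0.534) that was smaller than the spread within labelled db/m. Gys1, the muscle glycogen synthase, and Pygb, the brain phosphorylase, differed by -0.29 and -0.16.

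Other genes of these pathways, taken from lists of 88 genes that are not among the 45, were counted in the same way. Of 81 tested, 12 were lower and 6 higher in labelled db/m at an unadjusted p under 0.05, beside 9.18% and 6.67% of all genes. The median difference was -0.12, and none passed the adjusted threshold. The split was 7 lower and 4 higher with quantile normalization or the matrix, 24 and 2 with median centring, and 2 and 8 against the tubule markers. By list, 6 of 14 further enzymes were lower and 1 higher, 3 of 18 glycogen genes were lower and 3 higher, 3 of 23 regulators were lower and 1 higher, 1 of 12 genes of pyruvate entry was higher, and 0 of 8 pentose phosphate genes and 0 of 6 hexosamine genes had such a p.

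The 10 with the smallest p included a further hexokinase. Hkdc1, a hexokinase-like protein, read -1.55, -1.39 and -1.44 in labelled db/m and -0.71, -0.96 and -0.53 in labelled db/db, with no overlap and a difference of -0.73 (SE 0.14, unadjusted p = 0.00128, Benjamini-Hochberg adjusted p = 0.24). Arrdc4, an arrestin-like protein induced by glucose through the factor encoded by Mlxipl, read -0.32, -0.12 and -0.17 against 0.59, 0.67 and 0.18 and differed by -0.68 (SE 0.16, unadjusted p = 0.0036). Both were thus lower on every labelled db/m array. Txnip, its paralog with the same control, differed by 0.062 (limma unadjusted p = 0.73), named after its value was seen.

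Of the regulators of G6pc and Pck1 in liver, Foxo1 (-0.35), Ppargc1a (0.063), Hnf4a (-0.19) and Crtc2 (-0.25), named after their values were seen, did not reach an unadjusted p under 0.05. Creb1, on the same list of regulators, was higher in labelled db/m without overlap. Its difference was 0.28 (limma unadjusted p = 0.0292, adjusted p = 0.254). Enzymes among the 10 were Galm, which interconverts the forms of galactose and glucose (-0.42), Bpgm, which makes 2,3-bisphosphoglycerate (-0.35), Aldh1b1, a mitochondrial aldehyde dehydrogenase (-0.45), and Akr1b8, a relative of aldose reductase (0.76). The glycogen genes among them were Phka2, a liver subunit of phosphorylase kinase (-0.49), Pgm2, a phosphoglucomutase (-0.34), and Epm2a, the glycogen phosphatase laforin (0.44). Akr1b8 and Epm2a were higher in labelled db/m, and the others named among the 10 were lower. For Akr1b8 the arrays read 1.58, 1.03 and 1.64 against 0.41, 0.49 and 1.07, and replicate 2 of labelled db/m was below replicate 3 of labelled db/db.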

How the data were processed

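Renal cortex RNA of 6 mice was hybridised to one-colour Agilent arrays. Per array, the authors deposited Feature Extraction spot intensities (background subtracted, not scaled between arrays) and a matrix of log2 values whose columns share 1 distribution. The members and gene lists were chosen with earlier results of these data known.

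Intensities were analysed here with limma 3.58.1 under R 4.3.3, and tables were made in Python 3.11.15. Of 59305 non-control spots, those with outlier flags were left out (135 probes), spots of 300 probes were averaged, and log2 values were set relative to the array's 75th percentile. Saturation was not seen (0 probes). The 29889 probes that were well above background throughout 1 group or both were compared with lmFit and eBayes (two-sided) and Benjamini-Hochberg adjustment over all of them. The procedure was tested on simulated data. The number of arrays limits the precision. The p-values rest on the spread between arrays within a group, which may hold differences between slides as well as between mice.

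Members were named with values if a probe had an unadjusted p under 0.05 or passed the fold screen, or if they were among 16 enzymes listed by name. The brightest tested probe stood for a gene. Of other pathway genes, the 10 with the smallest p were named, except 1 that is not reported here. Gene names came from a scanner file, 1 other file having 71 altered names, and 243 of 244 listed genes were found. The alternatives were quantile normalization, median centring, the deposited matrix, normexp (offset 50), no filter, the filter on 6 arrays, the methods' t-test, trend and robust variance, slide and replicate number as blocks, and leaving out arrays.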

Additional observations from a re-analysis of the deposited data

How the results depend on the processing

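G6pc was lower in labelled db/m at an unadjusted p under 0.05 in all 19 alternative analyses, with differences from -1.15 to -0.73. Of the 30 named probe results, counted over these alternatives, 431 of 570 values kept their sign and their side of p 0.05. Probes lower at an unadjusted p under 0.05 numbered 14 as reported, 9 with quantile normalization, 27 with median centring, 7 with slide as a block, 24 without db/m replicate 2 and db/db replicate 3, and 2 when set against the proximal tubule markers, an alternative chosen after seeing the data. Of all probes, 19.3% were lower and 3.02% higher at that p with median centring, and 0.796% and 14.9% against the tubule markers. With quantile normalization 10.5% were lower and 5.16% higher, with slide as a block 5.16% and 4.55%, and without both arrays 14.9% and 15.7%. Probes higher at that p numbered 1 as reported, 0 with no filter or the methods' t-test, 2 with median centring, normexp or slide as a random block, 3 with the filter on all 6 arrays or trend and robust variance, 4 with slide as a block or against the tubule markers, and 9 without both arrays. The shares of all probes higher at that p were 4.47% with no filter, 4.28% with the methods' t-test and 4.97% with normexp. They were 8.03% with slide as a random block, 5.88% with the filter on all 6 arrays and 6.11% with trend and robust variance. The methods' t-test gave 17 lower probes at an unadjusted p under 0.05, beside 11.2% of all probes, and 0 of the 86 at an adjusted one. Past the fold screen were 0 as reported, 1 with no filter, the filter on all 6 arrays or trend and robust variance, 2 with normexp or against the tubule markers, 3 with median centring or slide as a block, and 8 without both arrays, which also left 2 at an adjusted p under 0.05. Over the whole array the screen passed 287 probes as reported, 67 with normexp, 346 with median centring and 843 with slide as a block. Without both arrays it passed 1593 of 31478 probes, and 263 had an adjusted p under 0.05. The median over genes was -0.15 as reported, -0.027 with quantile normalization, -0.032 with the deposited matrix, -0.34 with median centring and 0.082 against the tubule markers. Leaving out 1 array at a time gave 4 (db/m replicate 3) to 25 (db/m replicate 2) lower probes, 0 to 9 higher, 0 to 8 past the screen and 0 to 3 at an adjusted p under 0.05, with the highest counts each without db/m replicate 2, and medians from -0.18 to -0.11. Of all 31429 probes tested without db/m replicate 2, 12.6% were lower and 10.9% higher, 1003 were past the screen and 222 at an adjusted p under 0.05. Without db/m replicate 3, 4.01% of all probes were lower and 3.73% higher.

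Same-numbered arrays deviated together with correlations of 0.35, 0.15 and 0.046, so the numbers were not taken to pair the mice. With the replicate block 21 pathway probes were lower and 2 higher at an unadjusted p under 0.05, and 0 at an adjusted one. Of all probes, 13.6% were lower and 8.35% higher at that unadjusted p with this block. Some small differences changed sign. Hk1 was 0.13 with quantile normalization, 0.17 with the matrix and 0.19 against the tubule markers. Pkm was 0.19 with quantile normalization and with the matrix, 0.38 with slide as a block, 0.18 without db/m replicate 2, 0.043 without db/db replicate 1, 0.17 without both arrays and 0.22 against the tubule markers. Ldha was 0.0048 with quantile normalization and 0.078 against the tubule markers, where Ldhb was 0.067 and Pfkm 0.10. Pfkl was -0.034 with median centring. With 1 array left out, Pkm ranged from -0.21 (without db/m replicate 1) to 0.18, Pfkp from -0.061 (without db/m replicate 1) to 0.65 (without db/m replicate 2) and Aldoc from -0.063 to 1.18 (the same arrays). The causes were not tested. With 3 arrays a group, an exact permutation test cannot fall below p = 0.1 for a difference of any size. With all arrays no pathway probe passed the adjusted threshold as reported, and small differences could not be told from the spread.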
